A study of Homo sapiens with 18 samples.

Results

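A set of 7 transcription factor genes of the noradrenergic sympathetic lineage, PHOX2A, HAND1, HAND2, GATA2, GATA3, ISL1 and INSM1, were followed in SH-SY5Y cells with and without sarin. They were taken as all probe sets annotated to exactly 1 of the 7 genes, which gave 11 of the 19065 probe sets that carry 1 gene symbol, out of 22283 on the array. GATA2 and GATA3 have 3 probe sets each and the other members have 1 each. SH-SY5Y is an established, cloned neuroblastoma line of neuronal type, and the labels name no differentiating agent. Cells were left untreated or exposed to sarin, an organophosphate that blocks acetylcholinesterase, at 5 ppm, and total RNA was taken at 3, 24 and 48 h. Each of the 6 groups of treatment and time has 3 arrays. The labels name 6 flasks beside the 3 arrays of a group and do not say which flasks an array holds, so p-values measure the spread between arrays, which may be technical. The deposited values are signal intensities on a linear scale. Changes are on the scale of log2(signal + 16), and a change was called at an adjusted p under 0.05 in limma over all 19065 probe sets.

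Sympathetic neurons and chromaffin cells arise from the neural crest, where bone morphogenetic protein signals switch on a small circuit of transcription factors that then keep each other on. PHOX2A and ISL1 are homeodomain proteins, HAND1 and HAND2 are basic helix-loop-helix proteins that bind E-boxes with partners such as TCF3 and TCF12, and GATA2 and GATA3 are zinc finger proteins that bind GATA sites. INSM1 is a zinc finger repressor of neuroendocrine precursors that recruits histone-modifying enzymes. In neuroblastoma several of these factors belong to the core circuit of the noradrenergic state, which is set against a mesenchymal state of the same tumour.

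The cells carried the markers of that lineage. Of 11 sympathetic markers 10 were measured, and 8 of them, among them DBH, CHGA, CHGB, RET and STMN2, were above background on all 18 arrays, while TH, the first enzyme of catecholamine synthesis, was above background on 0 of 18. Above background means a signal over the 90th percentile of the unspiked bacterial control probe sets of that array. The 3 arrays of sarin at 48 h stood apart: the 3′ to 5′ signal ratio was 2.15 to 2.3 for GAPDH and 3.68 to 4.67 for ACTB, against 0.696 to 1.17 and 0.79 to 1.64 on the other 15 arrays. Their median signal was 534.5 to 551.6 against 290.2 to 413.9, and they correlated with the other arrays at 0.65 to 0.746, where the others correlated among themselves at 0.906 to 0.965. The median change over all probe sets was −0.16 at 24 h and 0.57 at 48 h on the deposited scale. Centring every array at its own median made these 0.13 and 0.01, quantile normalization −0.01 and 0.09, and scaling to the hybridisation spike-ins −0.12 and −1.27. Changes are given on the deposited scale, and each should be read against the median shift of its comparison. That shift depended on signal level. In the upper 60% of probe sets by level, which holds every member probe set, the median was −0.09 at 24 h and −0.03 at 48 h.

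The 250 bases before the transcription start are shown for the 4 members with a single start in the RefSeq promoter table (GRCh38.p14), because the factors bind E-boxes, GATA sites and homeodomain sites of the kind that such a circuit uses. Capitals mark matches, on either strand, to CANNTG (E-box), GATAA or TAATTA (a homeodomain core). The windows are chr11:72244177-72244426 for PHOX2A, chr5:154478228-154478477 for HAND1 and chr4:173530230-173530479 for HAND2, all on the minus strand, and chr5:51383198-51383447 on the plus strand for ISL1. Each is written 5′ to 3′ on the strand of its gene.
PHOX2A: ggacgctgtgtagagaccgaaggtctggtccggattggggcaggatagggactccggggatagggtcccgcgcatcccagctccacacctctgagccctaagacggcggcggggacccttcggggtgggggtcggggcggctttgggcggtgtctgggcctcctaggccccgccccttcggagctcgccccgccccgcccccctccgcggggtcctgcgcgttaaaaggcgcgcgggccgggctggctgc
HAND1: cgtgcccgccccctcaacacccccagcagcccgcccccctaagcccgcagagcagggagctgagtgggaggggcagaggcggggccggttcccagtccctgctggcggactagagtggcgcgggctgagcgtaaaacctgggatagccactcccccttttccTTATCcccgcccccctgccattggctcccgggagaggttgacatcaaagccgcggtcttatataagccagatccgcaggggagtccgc
HAND2: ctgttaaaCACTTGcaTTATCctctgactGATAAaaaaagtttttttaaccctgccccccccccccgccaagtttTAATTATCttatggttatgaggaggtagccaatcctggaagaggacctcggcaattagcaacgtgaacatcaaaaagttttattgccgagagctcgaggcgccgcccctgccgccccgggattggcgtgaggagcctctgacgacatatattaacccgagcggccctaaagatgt
ISL1: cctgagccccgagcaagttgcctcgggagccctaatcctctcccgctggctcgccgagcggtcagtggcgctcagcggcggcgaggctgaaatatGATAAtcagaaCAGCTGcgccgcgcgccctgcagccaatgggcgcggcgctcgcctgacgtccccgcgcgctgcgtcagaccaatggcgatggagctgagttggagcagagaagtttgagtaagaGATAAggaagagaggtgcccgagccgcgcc
The PHOX2A window held none of the 3 motifs and had a GC content of 73.2%. HAND1 held 1 GATAA match, 88 bases before the start, and no E-box. HAND2, the member with the lowest GC content of the 4 at 49.6%, held 1 E-box at 242 bases, GATAA matches at 234, 221 and 172 bases, and 1 TAATTA at 175 bases that overlaps the last of them. ISL1 held 1 E-box at 144 bases and GATAA matches at 155 and 30 bases. Among 35116 windows of the same length, 61.8% held an E-box, 20.4% GATAA and 4.35% the homeodomain core. The table lists 2 starts for GATA2, with 0 and 3 E-boxes and no GATAA, and 6 for GATA3, of which 2 held an E-box and 1 held GATAA. A match describes the letters in the window, not a bound site.

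At 24 h of sarin INSM1 fell 3.16-fold, and 2 of the 3 GATA3 probe sets rose 1.55-fold and 1.64-fold. HAND1 was higher on every sarin array than on any control array but did not pass the test, while PHOX2A, ISL1 and the main GATA2 probe set were close to control. At 48 h PHOX2A was lower and 2 of the 3 GATA2 probe sets were higher, on arrays that stood apart in RNA quality. At 3 h no member passed the test.

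**Figure D1:**
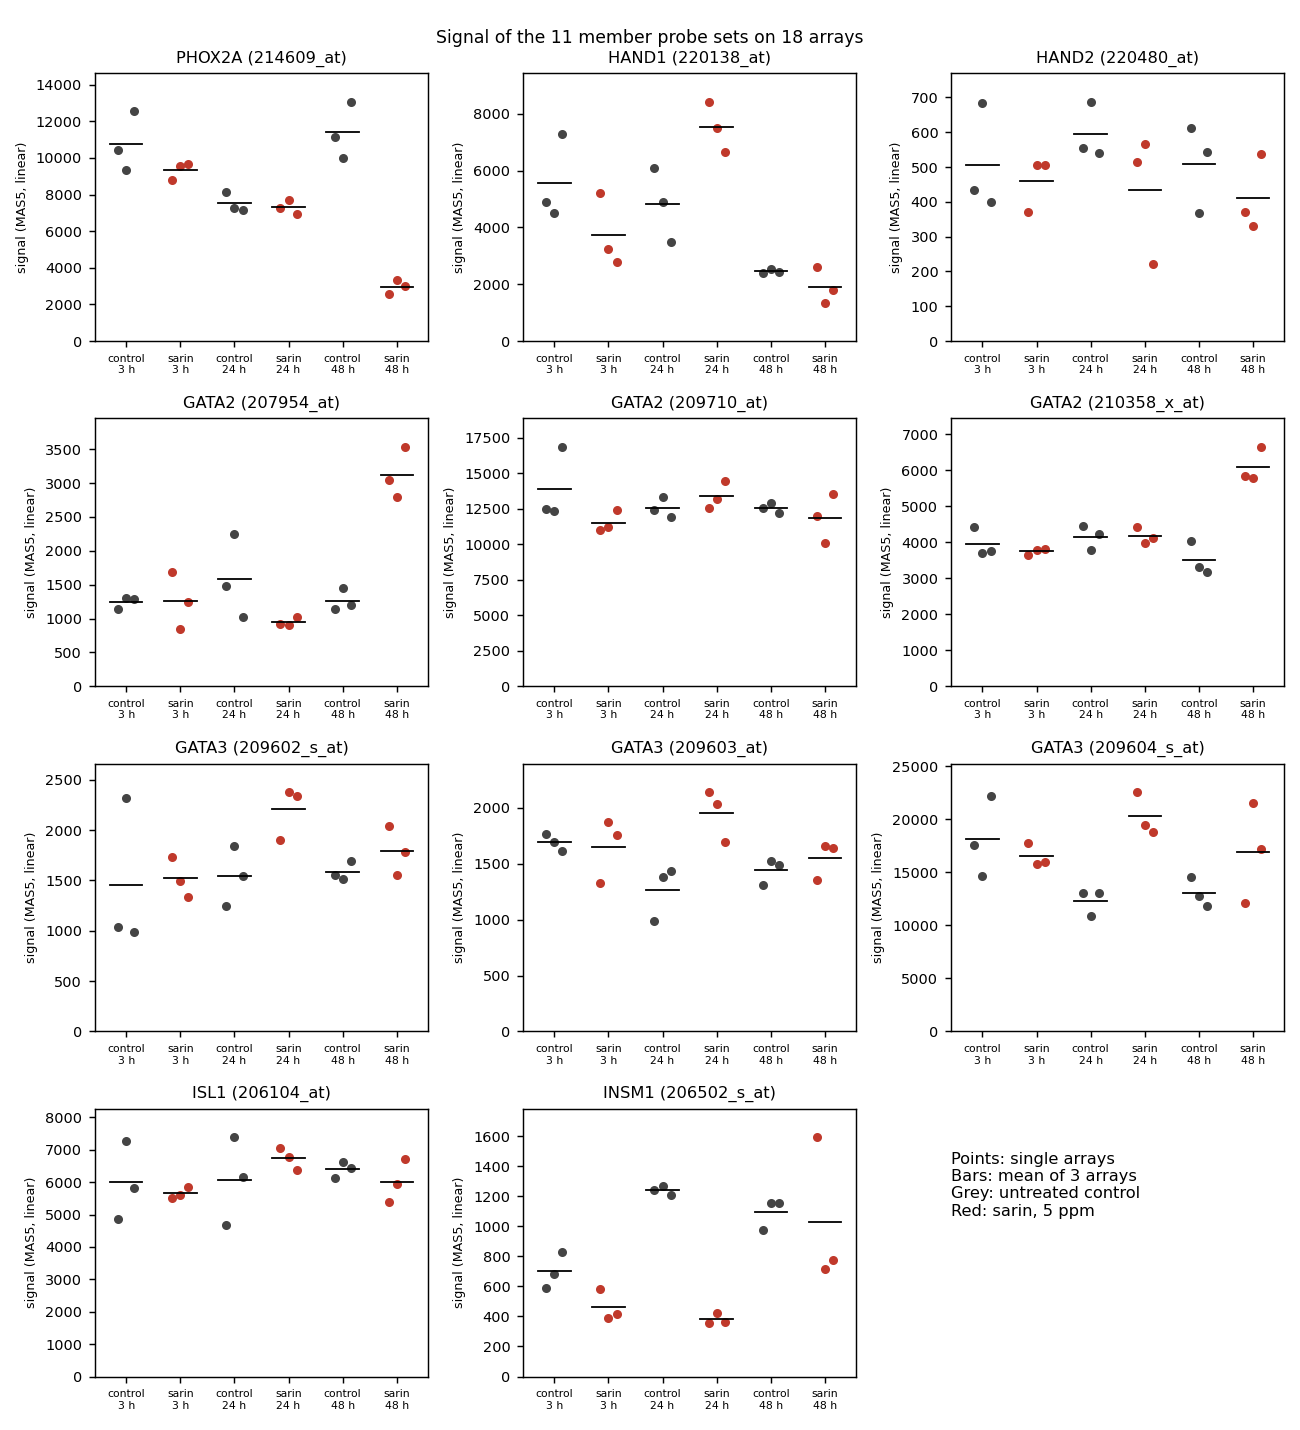
Deposited signal of each of the 11 member probe sets on every array (points, linear axis) by group of treatment and time, with bars at the mean of 3 arrays. The INSM1 points of sarin at 24 h, 358.5 to 422.6, lie far under those of the 24 h controls, 1209 to 1267, and the PHOX2A points of sarin at 48 h, 2551 to 3326, lie under all others.

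INSM1 (206502_s_at) had the largest change of the 11 member probe sets at 24 h. Its signals in the 24 h controls were 1242, 1267 and 1209, and with sarin they were 358.5, 422.6 and 365.4. The groups did not overlap, and the 3 arrays within each lay close together. The change was −1.66 ± 0.25 (log2, SE, n = 3 per group), or 3.16-fold lower, with a 95% interval of −2.18 to −1.14 and an adjusted p of 0.00124 (limma). In these bulk samples fewer cells with a transcript and less transcript per cell cannot be told apart. Against the 3 h and 48 h controls in place of those of 24 h the change was −1.16 with an adjusted p of 0.00267, and leaving out each of the 6 arrays in turn kept the call. When arrays were scaled to the spike-ins the change was −1.62 and the adjusted p 0.0815.

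In untreated cells INSM1 had a higher mean at 24 and 48 h than at 3 h, but neither difference passed (0.82 ± 0.25, adjusted p = 0.0777, and 0.64 ± 0.25, adjusted p = 0.337, SE, n = 3, limma). At 3 h the controls read 591.5, 679.4 and 829.1 and the sarin arrays 583, 387.9 and 417.9, which do not overlap, but the change of −0.59 ± 0.25 (SE, n = 3) did not pass (adjusted p = 0.517, limma). At 48 h the controls read 972.3, 1159 and 1158 and the sarin arrays 1592, 718.8 and 776.2, so that the first sarin array lay above all controls and the other two below them. In the order of group means, sarin at 24 h and at 3 h overlapped at the bottom. In the middle, the 48 h sarin arrays overlapped both the 3 h and the 48 h controls, which did not overlap each other. The 24 h controls had the highest mean and lay above all 48 h controls, but the 48 h sarin arrays spread from below to above them.

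GATA3, a zinc finger factor that sympathetic neurons need to make noradrenaline, was higher with sarin at 24 h. Its brightest probe set (209604_s_at) read 13065, 10898 and 13026 in the 24 h controls and 22550, 19464 and 18797 with sarin. All sarin arrays lay above all controls, and the change was 0.72 ± 0.19 (SE, n = 3), or 1.64-fold, with an adjusted p of 0.045 (limma). The probe set 209603_at read 989, 1379.5 and 1432.5 against 2141, 2032 and 1697.5, a change of 0.63 ± 0.17 with an adjusted p of 0.043. The third, 209602_s_at, also had no overlap, at 1242, 1841 and 1548 against 1904.5, 2375 and 2333, but its change of 0.52 ± 0.24 did not pass (adjusted p = 0.247).

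The GATA3 calls were narrow. Leaving out any 1 of the 6 arrays lost both, with adjusted p from 0.0778 to 0.193 for 209604_s_at and from 0.0523 to 0.169 for 209603_at. The 24 h controls had a lower mean than the 3 h controls on these 2 probe sets, though neither difference passed. The 3 h controls read 17584, 14696 and 22178 on 209604_s_at, which overlaps the 24 h sarin arrays. Against the 3 h and 48 h controls the changes were 0.41 (adjusted p = 0.181) and 0.32 (adjusted p = 0.242). On 209602_s_at, where the 24 h controls were not lower (1544 ± 299 against 1451 ± 754 at 3 h, SD, n = 3), that change was 0.58 (adjusted p = 0.115). Neighbouring groups overlapped throughout the order of GATA3 levels on all 3 probe sets.

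HAND1 (220138_at), a helix-loop-helix factor related to HAND2, read 6094, 4887 and 3500 in the 24 h controls and 8420.3, 7503 and 6663 with sarin. The groups did not overlap, yet the controls spread widely, and the change of 0.67 ± 0.26 (SE, n = 3) or 1.59-fold did not pass, with a 95% interval of 0.14 to 1.20 and an adjusted p of 0.158 (limma). It passed in 3 of 18 alternatives: under median centring (0.96, adjusted p = 0.0203), with array weights (adjusted p = 0.0333) and against the 3 h and 48 h controls (1.03, adjusted p = 0.00762). The adjusted p was 0.47 with quantile normalization and 0.491 with spike-in scaling. At 3 h the direction was the opposite, with 4882.5, 4526 and 7297 in controls and 5217, 3259 and 2771 with sarin, a change of −0.59 ± 0.26 with overlapping arrays and an adjusted p of 0.531. The difference between the effects at 24 and 3 h was 1.26 ± 0.36 and did not pass (adjusted p = 0.178). At 48 h both groups were low, at 2411.5, 2536 and 2449 in controls and 2620.3, 1336 and 1796 with sarin, and the 48 h groups lay below all other groups without overlap.

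HAND2 (220480_at), a factor that sympathetic neurons need to form, was above background on 16 of 18 arrays, and on 1 of the 3 arrays of sarin at 48 h. The other 10 probe sets were above it on all 18. Its 24 h signals were 555.7, 687.2 and 540 in controls and 515.1, 565.5 and 221.6 with sarin, with the third sarin array well under the others and a change of −0.54 ± 0.33 (SE, n = 3, adjusted p = 0.393, limma). Its group means ranged from 412.5 ± 110 to 594.3 ± 80.8 (SD, n = 3), and all neighbours in their order overlapped.

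PHOX2A (214609_at), the homeodomain factor that switches on the dopamine beta-hydroxylase gene, stayed near its control level at 24 h and was far lower at 48 h. At 24 h it read 8134, 7266 and 7184 in controls and 7279, 7696.5 and 6916 with sarin. These overlap, and the change was −0.04 ± 0.14 (SE, n = 3), with a 95% interval of −0.34 to 0.25 and an adjusted p of 0.897 (limma). It turned to 0.24 under centring on the array median, and against the 3 h and 48 h controls it was −0.60 with an adjusted p of 0.00561. At 48 h it read 11166, 10019.5 and 13062 in controls and 2551, 3326 and 3009 with sarin, which lay below every other array. That change was −1.94 ± 0.14, or 3.84-fold lower, with an adjusted p of 2.11e-09.

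ISL1, a LIM-homeodomain factor of sympathetic and motor neurons, passed the test in none of the comparisons, and its lowest and highest group means lay 1.19-fold apart. Its 24 h signals were 4667, 7381 and 6145 in controls and 7048, 6777.5 and 6365 with sarin, a change of 0.17 ± 0.16 (SE, n = 3) with a 95% interval of −0.16 to 0.51 and an adjusted p of 0.597 (limma). The 6 group means ran from 5660 ± 168 to 6730 ± 344 (SD, n = 3), and neighbours in their order overlapped throughout. At 48 h the change was −0.09 ± 0.16 (adjusted p = 0.625), and quantile normalization turned it to 0.74.

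GATA2, a zinc finger factor closely related to GATA3, differed between its probe sets. The brightest, 209710_at, read 12418, 13331.5 and 11949 in the 24 h controls and 12547, 13214 and 14432 with sarin, a change of 0.09 ± 0.15 (SE, n = 3, adjusted p = 0.778, limma). The dim probe set 207954_at read 1479, 2256 and 1029 against 915.8, 909.6 and 1027, a change of −0.66 ± 0.24 with no overlap and an adjusted p of 0.14. On 210358_x_at the 24 h change was 0.01 ± 0.12. At 48 h 207954_at read 1143, 1452 and 1201 in controls and 3051, 2793 and 3533 with sarin (1.30 ± 0.24, adjusted p = 0.000178), and 210358_x_at read 4037, 3307 and 3182 against 5826, 5767.5 and 6639 (0.80 ± 0.12, adjusted p = 3.03e-05). The brightest did not move with them, at −0.09 ± 0.15, and the probe sets of this gene therefore disagreed at 48 h.

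**Figure D2:**
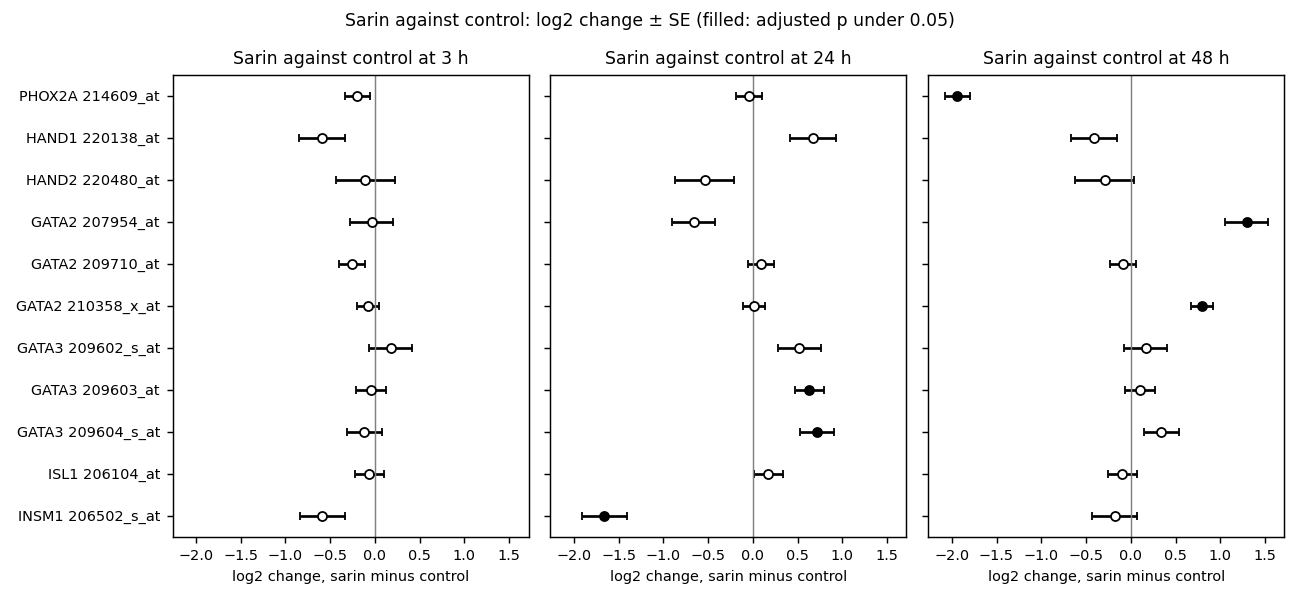
Change of each member probe set between sarin and control (log2 scale, points with SE, n = 3 arrays per group) at 3, 24 and 48 h. INSM1 was lowest at 24 h, at −1.66, and PHOX2A lowest at 48 h, at −1.94.

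Counted over the members, 3 of 11 probe sets were called at 24 h, 2 higher and 1 lower, where 3.59% of all 19065 were called (1.7% higher and 1.89% lower). The 3 calls fall on 2 genes, since both higher ones are GATA3. The members were chosen with earlier results of these data known, so these shares are descriptions. The arrays did not overlap for 6 of 11 member probe sets, against 32.3% of all probe sets. The median change was 0.09 over the member probe sets and −0.16 over all. At 3 h 0 of 11 were called in limma, beside 0% of all, with 2 of 11 at an unadjusted p under 0.05 beside 8.52% of all, and 1 of 11 without overlap beside 12.9%. The single member probe set with a positive change among the 11 at 3 h was 209602_s_at of GATA3, at 0.18 (adjusted p = 0.88). At 48 h 3 of 11 were called, beside 63.1% of all probe sets (40.7% higher, 22.4% lower). The members' share is thus below that of the array as a whole on the deposited scale, but not under other scalings. It was 7 of 11 with quantile normalization (beside 9814 of 19065), 7 with median centring (beside 9978) and 10 with spike-ins (beside 10629). For 3 of 11 the 48 h arrays did not overlap, beside 64.6% of all.

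Signs of RNA quality and several summed signals of cell type markers moved with these groups. At 24 h the 3′ to 5′ signal ratio of GAPDH ran from 1.05 to 1.17 on sarin arrays, against 0.811 to 0.941 in controls, and the summed signal of 10 markers of substrate-adherent, mesenchymal-type neuroblastoma cells, 5 of them above background on all arrays, was 33980 to 35000 against 52450 to 54240. The sympathetic markers summed to 70770 to 74710 against 66680 to 79310, which overlap, though 1 of the 10 measured was called higher and 2 lower. Glial markers, 5 of 7 measured with S100B below background on all arrays, summed to 482.5 to 538.5 against 830.9 to 1044, and 4 of 5 blood markers to 535.7 to 752 against 849.1 to 1215. Epithelial markers, 5 of 5 measured with KRT14 and KRT19 below background on all arrays, summed to 301.3 to 484.2 against 399.8 to 613. At 48 h the sympathetic sum was 24000 to 25780 with sarin against 56560 to 64480, and the substrate-adherent sum 18330 to 20240 against 53460 to 71650. That last sum hides opposite moves: 4 of the 10 substrate-adherent markers were called higher and 3 lower, with a median change of 0.30. The sums of the other cell types were higher with sarin at 48 h, at 1584 to 1878 against 708 to 924 for glia, 1804 to 1970 against 728 to 1025 for blood and 802.8 to 1170 against 284 to 582.2 for epithelium. Of these glial, blood and epithelial markers only MBP and HBB were above background on all arrays. The background cut moved the same way, at 410.7 to 443.2 with sarin at 48 h against 97 to 182.9 on the other 15 arrays. At 24 h it was 111.7 to 127.2 with sarin against 134.7 to 182.9 in controls. These sums were therefore not read as amounts of other cells. The part of these values in the changes of INSM1, GATA3 and PHOX2A was not tested.

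The direction of several members depended on the scaling at 48 h. The PHOX2A change stayed called in each of the 16 alternatives run. The GATA2 calls did not: centring on the array median gave 0.23 (adjusted p = 0.164) for 210358_x_at, and scaling to the spike-ins turned both to −0.76 and −1.27. The same scaling put 10 of 11 member probe sets lower and past the threshold, beside an all-probe-set median of −1.27 and 10629 of 19065 probe sets called. Quantile normalization called 7, 5 higher and 2 lower, beside 9814 of all. Median centring also called 7, but 1 higher and 6 lower, beside 9978 of all. Leaving out the first sarin array at 48 h raised the count from 3 to 6, with HAND1, GATA3 209604_s_at and INSM1 added, beside 11365 of all probe sets called.

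The sarin effect itself was compared between times. Between 48 and 24 h it differed for 5 of 11 probe sets, 3 higher and 2 lower, beside 54.9% of all (35.7% higher, 19.2% lower), and these are given with their values among the results for a closer look. Between 24 and 3 h 0 of 11 passed in limma, beside 0.346% of all, and 4 of 11 had an unadjusted p under 0.05, beside 10% of all. INSM1 came at −1.07 ± 0.35 (SE, adjusted p = 0.256) and GATA3 209604_s_at at 0.83 ± 0.27 (adjusted p = 0.249). The fall of INSM1 at 24 h is therefore not shown to differ from its change at 3 h.

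In untreated cells 0 of 11 member probe sets passed between 24 and 3 h (beside 3.13% of all) or between 48 and 3 h (beside 0.0787%), in limma. At an unadjusted p under 0.05 there were 4 of 11 between 24 and 3 h (beside 19.5% of all) and 3 of 11 between 48 and 3 h (beside 10.8%). The arrays did not overlap for 4 of 11 in each comparison, beside 23.1% and 15.6% of all. PHOX2A was −0.51 ± 0.14 (SE, n = 3) at 24 h (adjusted p = 0.056), INSM1 was 0.82 ± 0.25 (adjusted p = 0.0777) and GATA3 209604_s_at −0.54 ± 0.19 (adjusted p = 0.126). HAND1 was −1.14 ± 0.26 at 48 h against 3 h (adjusted p = 0.0908). Without the 48 h sarin arrays in the fit PHOX2A and INSM1 passed between 24 and 3 h, with adjusted p of 0.0449 and 0.019, beside 936 of all 19065 probe sets. The 24 h controls enter both this comparison and that with sarin, so their levels act in both. Their 3′ to 5′ ratio of ACTB was 1.46 to 1.5 against 0.79 to 1.14 in the 3 h controls, while that of GAPDH overlapped. Their median signal was 397 to 413.9 against 310.2 to 339.2. The part of these values in the differences between controls was not tested.

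**Figure D3:**
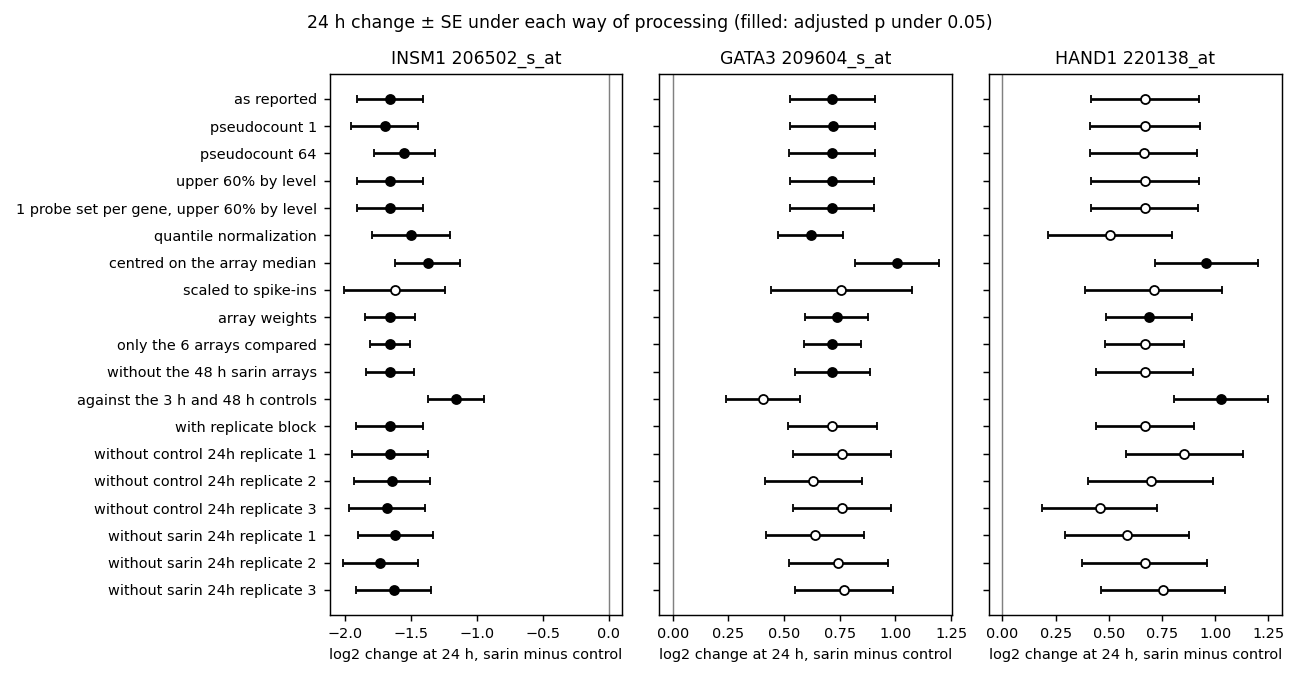
Change at 24 h of INSM1, GATA3 (209604_s_at) and HAND1 (log2 scale, points with SE) as reported and under each alternative setting, with filled points where the adjusted p is under 0.05. INSM1 lies between −1.73 and −1.16 in all of them, and is past the threshold in 17 of 18 alternatives, GATA3 in 9 of 18 and HAND1 in 3 of 18.

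Other genes of the circuit were read on their brightest probe set, where 1.84% of 11963 genes were called higher and 2.11% lower at 24 h and the median of all was −0.15. Of 26 further noradrenergic-state transcription factors 23 were measured; 3 rose and 0 fell, with a median of 0.02. SATB1, a chromatin organizer, changed by 0.74 ± 0.16 (adjusted p = 0.0126), and TCF12, the E-box partner of the HAND proteins, by 0.49 ± 0.13 (SE, n = 3, adjusted p = 0.042). KLF13, a zinc finger factor, was at least 1.72-fold higher, since its controls were not above background (adjusted p = 0.0278). These 3 calls were lost in at least 4 of the 6 fits that each left out 1 array. Against the 3 h and 48 h controls SATB1 was at 0.28 (adjusted p = 0.275) and TCF12 at 0.32 (adjusted p = 0.103), neither past the threshold, while KLF13 was called (adjusted p = 0.00022). Of 36 mesenchymal-state factors 31 were measured, with 0 higher and 1 lower and a median of −0.35. NOTCH2, a receptor of that state, fell by 0.86 on the log2 scale (adjusted p = 0.028), a call lost in 4 of the 6 fits without 1 array.

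Of 23 partner proteins of the members 18 were measured, and the 1 called was TCF12, already counted above. Its call was lost in each of the 6 fits that left out 1 array. HDAC1, a histone deacetylase that INSM1 recruits, was at 0.51 and not called (adjusted p = 0.108). It was picked outside the naming rule after its value was seen. Of 17 genes of bone morphogenetic protein signalling 15 were measured, with 1 higher and 0 lower. That was ID2, an inhibitor of helix-loop-helix factors, at 0.76 ± 0.15 (SE, n = 3, adjusted p = 0.00633). Without the second control array its adjusted p was 0.0584, and against the 3 h and 48 h controls its change was 0.05.

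All 24 target and effector genes were measured, with 1 higher and 4 lower at 24 h and a median of −0.08. RET, the receptor for glial cell line-derived neurotrophic factor, was at −1.26 ± 0.14 (SE, n = 3, adjusted p = 6.56e-05), and it remained called in each of 6 fits that left out 1 array. Against the 3 h and 48 h controls RET was at −1.085 (adjusted p = 2.36e-05, limma). CHGB, a granin of dense-core vesicles, was at −1.02 ± 0.11 (adjusted p = 3.41e-05). Against the 3 h and 48 h controls CHGB was instead called higher, at 0.62 (adjusted p = 0.000434, limma). NPY, a sympathetic co-transmitter, was at −0.70 ± 0.14 (adjusted p = 0.00859) and at −0.21 against those controls (adjusted p = 0.391). SLC18A1, a vesicular monoamine transporter, was at −0.57 ± 0.14 (adjusted p = 0.0285), and CHGA, another granin, rose by 0.77 ± 0.17 (adjusted p = 0.0166). Each of the calls for SLC18A1 and CHGA was lost in 5 of the 6 fits that left out 1 array. With spike-in scaling all of the calls named in these lists were lost, while the changes stayed of like size with larger errors, such as −1.22 ± 0.32 for RET, −0.98 ± 0.27 for CHGB and 0.78 ± 0.25 for SATB1 (SE).

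At 3 h 0 genes of any of these lists were called in limma. At 48 h 3 target genes rose and 14 fell, with a median of −0.76, where 41.2% of all genes were higher and 23.8% lower and the median of all was 0.53. Over the 7178 genes in the upper 60% by level the median at 48 h was −0.08. Noradrenergic-state factors had 11 higher and 8 lower, mesenchymal-state factors 10 and 9, partners 7 and 6, and bone morphogenetic protein genes 5 and 7.

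**Figure D4:**
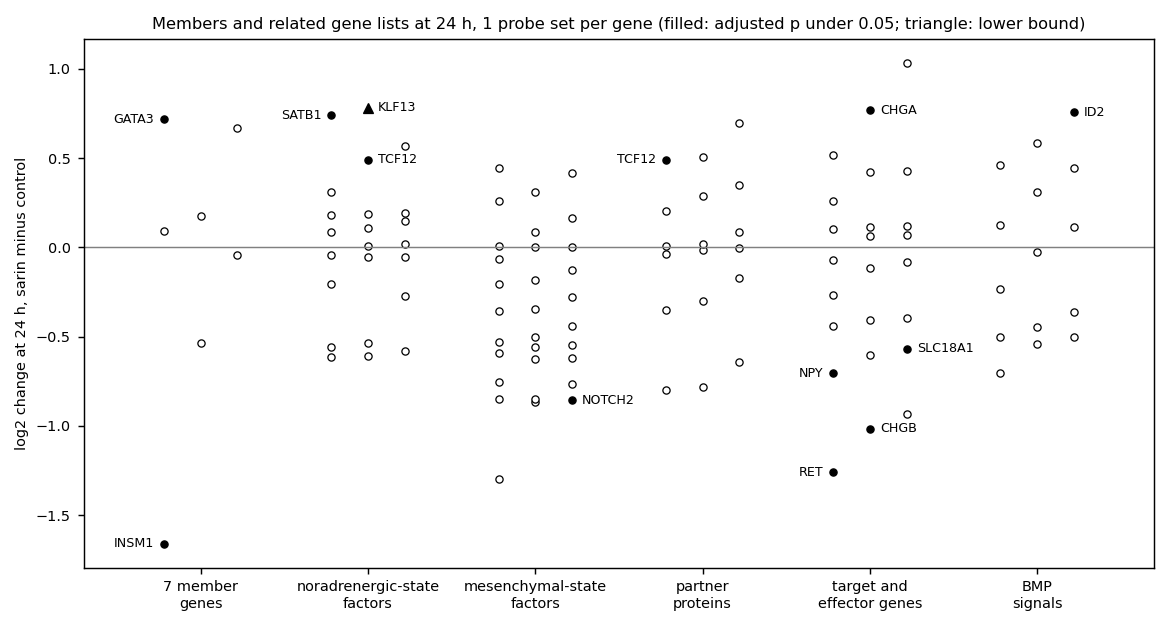
Change between sarin and control at 24 h (log2 scale) of the members and of every measured gene of the 5 lists, each point a gene's brightest probe set, with a triangle at the lower bound of 1.72-fold for KLF13. INSM1 at −1.66 and RET at −1.26 are the lowest called points.

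Patterns over the 15 arrays outside sarin at 48 h were also set side by side, as descriptions over 7427 genes above background there. The genes most like INSM1 were RET (Pearson r = 0.95), TSPAN4 (0.946) and PGK1 (0.938), and over all 18 arrays these stood at 0.355, 0.743 and 0.223. GATA3 was most like CCT2 (0.916), PSMC2 (0.915) and ARHGAP1 (0.906), at 0.0355, 0.34 and 0.683 over 18 arrays. HAND1 was most like SPRY4 (0.888), DNAJC16 (0.882) and ZNF239 (0.876), at −0.0534, 0.888 and −0.218 over 18. PHOX2A was most like RAB11A (0.863), NDUFB5 (0.861) and SNHG32 (0.855), at 0.942, 0.941 and 0.796 over 18. For GATA2 they were MUL1 (0.917), UBB (0.898) and CHRNA3 (0.842), at 0.76, 0.787 and 0.526 over 18. For ISL1 they were EXOC1 (0.815), METAP2 (0.809) and SUSD6 (0.808), at 0.714, 0.396 and 0.661 over 18, and for HAND2 SECISBP2 (0.788), UIMC1 (0.774) and GRIA4 (0.769), at 0.632, 0.102 and 0.292. Among the members, INSM1 stood at −0.753 over 15 arrays and −0.726 over 18 with GATA3 209604_s_at, at −0.76 and −0.757 with 209603_at, and at −0.296 and −0.172 with 209602_s_at. These arrays share groups and scaling, so the coefficients are descriptions.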

How the data were processed

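Per the labels, total RNA of 18 samples was labelled and hybridised, 1 array each. The authors deposited signal intensity on a linear scale, and the submitters' processing notes name MAS5, with no version or scaling target stated. The mean after trimming 2% at each end was 800.1 to 800.3 on every array. Of 22283 probe sets, 68 are controls, 19065 have 1 gene symbol, 1043 several and 2107 none in the platform annotation. Entrez identifiers of 19053 matched a RefSeq table of GRCh38.p14, and 0 symbols changed.

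Signals were analysed as log2(signal + 16), which understates changes of dim genes. Means of 6 groups were fitted over all 18 arrays with limma 3.58.1 in R 4.3.3 (lmFit, eBayes with trend, 12 residual and 6.698 prior degrees of freedom), two-sided, with Benjamini-Hochberg adjustment over 19065 probe sets, for 7 comparisons. The fit was tested on simulated data. A "brightest" probe set has the highest mean log2 signal of its gene. The members and gene lists were chosen with earlier results of these data known. Named from each list were up to 4 called genes per direction at 24 h with the smallest p, or the 2 smallest p where none passed. HDAC1 was chosen after its value was seen. Named for likeness were the 3 genes of highest r per member. Alternatives changed the pseudocount, level filter, probe set choice, normalization, array weights, arrays fitted, controls, replicate block and arrays left out. The number of arrays limits the precision.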

Additional observations from a re-analysis of the deposited data

Results flagged for a closer look

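For 5 member probe sets the sarin effect differed between 48 and 24 h, as tested by the difference of differences in limma. The difference (48 h minus 24 h) was −1.90 ± 0.20 (log2, SE) for PHOX2A (adjusted p = 5.99e-07), and it kept its call in every alternative run. It was 1.96 ± 0.34 for GATA2 207954_at (adjusted p = 0.000147) and 0.78 ± 0.18 for GATA2 210358_x_at (adjusted p = 0.00126). For INSM1, lower with sarin at 24 h and overlapping its controls at 48 h, it was 1.48 ± 0.35 (adjusted p = 0.00196). For HAND1, with a positive change at 24 h and a negative one at 48 h, neither of which passed, it was −1.08 ± 0.36 (adjusted p = 0.0168). With spike-in scaling the sign turned for both GATA2 probe sets (−0.14 for 207954_at, −1.32 for 210358_x_at) and for INSM1 (−0.55), and centring on the array median put 210358_x_at at −0.068 and took the call from INSM1 (adjusted p = 0.154). The HAND1 call was lost without the third 24 h control array, without the second 48 h sarin array and with quantile normalization, which also took that of INSM1. Beside these, 54.9% of all probe sets passed in the same comparison, and the 48 h sarin arrays had GAPDH 3′ to 5′ ratios of 2.15 to 2.3 against 0.696 to 1.17 elsewhere. Their part in the 5 differences was not tested.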

How the results depend on the processing

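Of 1380 member values under alternatives, 1209 kept their direction and side of the threshold. Here parentheses after a count give that over all 19065 probe sets in the same setting, or over those that a filter leaves. The 24 h count of called member probe sets, 3 (684), was 0 with spike-in scaling (34), 5 with array weights (2137) and 1 in each fit without 1 array (209 to 415). The 48 h count, 3 (12022), was 1 with 1 probe set per gene and the level filter together, written below as both filters (5075 of 7178). It was 7 with quantile normalization (9814), 7 with median centring (9978), 10 with spike-ins (10629) and 3 to 6 without 1 array (10570 to 11451). For controls at 24 against 3 h, 0 (596) became 1 with the level filter alone (602 of 11439), 1 with both filters (408 of 7178) and 3 with median centring (1456). It became 6 with spike-ins (3386), 2 with array weights (1214) and 2 without the 48 h sarin arrays (936). Without 1 array it was 0 to 1 (201 to 668), with the 1 without control replicate 2 of 3 h (656). For controls at 48 against 3 h, 0 (15) became 1 with both filters (35 of 7178), 1 with median centring (46), 5 with spike-ins (3306) and 1 with array weights (205). Array weights gave 3 (307) for the effect at 24 minus 3 h, in place of 0 (66). For 48 minus 24 h, 5 (10466) became 3 with both filters (4569 of 7178), 8 with median centring (8503), 9 with spike-ins (8480) and 4 to 6 without 1 array (9423 to 10425). Over all probe sets the 24 h count of 684 ran from 34 to 2137.

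Directions turned as follows, where a change was called as reported, under the alternative or in both. Only GATA2 210358_x_at with spike-ins, at 48 h and for 48 minus 24 h, and CHGB were called in both. With quantile normalization GATA2 209710_at was 0.71 and ISL1 0.74 at 48 h, and 0.78 and 0.72 for 48 minus 24 h. With median centring GATA2 210358_x_at was −0.068 for 48 minus 24 h. With spike-ins, at 48 h, GATA2 207954_at was −0.76, GATA2 210358_x_at −1.27, and GATA3 −1.87, −1.93 and −1.73. GATA2 210358_x_at was −0.73 in controls at 24 against 3 h. For 48 minus 24 h HAND2 was −1.70, GATA2 207954_at −0.14, GATA2 210358_x_at −1.32 and INSM1 −0.55. Against the 3 h and 48 h controls CHGB at 24 h was 0.62. The difference for HAND1 between 48 and 24 h lost its call without the third 24 h control (adjusted p = 0.0529), without the second 48 h sarin array (adjusted p = 0.0512) and with quantile normalization (adjusted p = 0.145). That for INSM1 lost it with quantile normalization (0.0651) and median centring (0.154). The cause was not tested.

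With the replicate block the 24 h count was 2, with GATA3 209604_s_at lost (adjusted p = 0.0605), beside 609 of all 19065 probe sets. The other counts were 0, 3, 0, 0, 0 and 5 in the order 3 h, 48 h, both control comparisons and both effect differences. Beside them 0, 12039, 552, 11, 42 and 10497 of all were called. Same-numbered control and sarin arrays of the same time correlated at −0.0763 to 0.0346 in their deviations from group means, so the numbers were not taken as pairs. Same-numbered arrays of different times were not compared in this way.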
